A study of Mus musculus with 12 samples.

Results

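Hdac2 encodes histone deacetylase 2, and its RNA was followed in the hippocampus of mice raised in standard or enriched housing. It was taken by its symbol from the deposited table of genes the authors called differentially expressed between these housings, where it is 1 of 584 genes. Male C57BL/6 mice were weaned on postnatal day 21 and kept for 5 weeks in a standard cage (SH) or in an enriched environment (EE). The EE cage had toys, tunnels and hideouts, and it also held more animals than the SH cage. At 8 weeks of age total RNA of the hippocampus was sequenced in 3 SH and 3 EE libraries, which the study describes as biological repeats without saying whether each came from a single mouse. The labels name no transgene or drug in either group, and 6 m6A immunoprecipitation libraries of the same study were not used here.

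HDAC2 is a class I deacetylase that removes acetyl groups from histone tails, which tightens chromatin and lowers transcription. It works with its close relative HDAC1 inside corepressor complexes such as NuRD, Sin3 and CoREST. In the hippocampus HDAC2 is known as a brake on memory formation that sits at the promoters of plasticity genes, among them Bdnf, a neurotrophin, and Egr1, an immediate early transcription factor. The comparison therefore asks how the RNA of this repressor stood beside the RNA of these targets in the same libraries.

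In the GRCm38 build (mm10) Hdac2 lies on the plus strand of chromosome 10, at chr10:36974297-37001889, a span of 27593 bp in RefSeq. RefSeq lists 4 transcripts, of which 3 are predicted. The curated transcript has 14 exons, all with coding sequence, from 36974544 to 37001888, and holds 2004 bp, of which 1467 bp code for 488 amino acids. The neighbouring genes are Hs3st5 upstream and Marcks downstream. No annotated gene overlaps Hdac2, and neither neighbour is in the table, so reads on its exons have no second annotated gene to which they could belong at this locus. Whether reads that also map to the paralogue Hdac1 were counted is not given in the sources used here.

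Levels are given as FPKM, the reads on a gene scaled to its exon length and to the mapped reads of its library. These mapped reads came to between 31969156 and 40319498 in SH and between 37507694 and 53943195 in EE, of which the table takes between 8.12% and 8.85%. Because the authors chose its genes for differing between the housings, a small p-value within it is no independent evidence, and adjusted p-values cover these genes alone. With edgeR's quasi-likelihood test and these totals as library sizes, 112 genes (19.2% of the table) rose in EE and 237 (40.6%) fell, both at p under 0.01 before adjustment. With TMM factors over the table the split turned to 229 higher and 53 lower, with DESeq2's size factors to 233 and 29, and with the non-mitochondrial counts of the table as library size to 217 and 90. Both of the first 2 scalings centre the table, which moved the median log2 fold change of all genes by 0.08 with TMM and by 0.11 with DESeq2.

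Hdac2 had a higher mean in EE than in SH, by 11.3%. The SH libraries held 3759, 4443 and 4975 reads on Hdac2 in replicates 1, 2 and 3, and the EE libraries held 4894, 5923 and 6802. Per length and depth this was an FPKM of 52.8, 51.7 and 55.4 in SH and of 58.5, 62.7 and 56.6 in EE. All EE libraries were above all SH libraries, as in 37.2% of the selected table, with 53.8% lower without overlap, and the gap was narrow, since the lowest EE library exceeded the highest SH library by 1.21 FPKM, a ratio of 1.02. EE replicate 3, the most deeply sequenced library, was the lowest of the EE group, and EE replicate 2 was the highest.

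Mean FPKM and SD over 3 libraries were 53.3 ± 1.9 for Hdac2 in SH, against 59.3 ± 3.15 in EE, a fold of 1.11. The log2 fold change was 0.15 with a standard error of 0.05 and a 95% confidence interval of 0.04 to 0.27. Its unadjusted p-value was 0.014 and its adjusted p-value 0.018 (edgeR, with the method of Benjamini and Hochberg over the table). In this fit Hdac2 did not pass 0.01 unadjusted and did pass 0.05 adjusted, as did 99.8% of the table. The authors called Hdac2 in their own edgeR fit with a stated threshold of 0.01, and that fit was not repeated here. Counting error was 1.2% to 1.6% of the level in each library, below the coefficient of variation between libraries, which was 3.57% in SH and 5.31% in EE. In bulk tissue a change in RNA per cell and a change in the number of cells that carry Hdac2 RNA cannot be told apart.

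**Figure D1:**
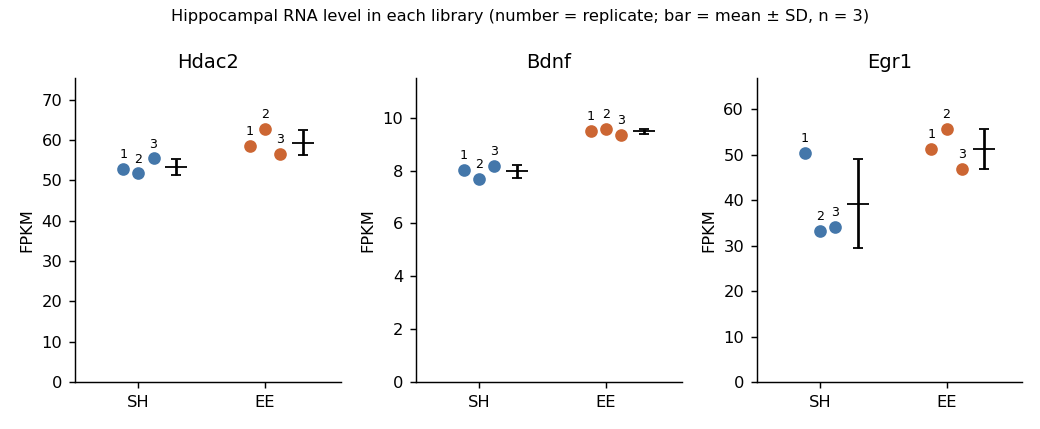
FPKM of Hdac2, Bdnf and Egr1 in each library (points, numbered by replicate) with the mean ± SD of 3 libraries per group (bars), all axes starting at 0. The EE points of Hdac2 lie between 56.6 and 62.7 and the SH points between 51.7 and 55.4, Bdnf separates more clearly, and SH replicate 1 of Egr1 lies among the EE points.

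Hdac2 was an abundant transcript with a small difference within this table. Its mean FPKM over the 6 libraries, 56.3, ranked 78 of 584. Among the 246 genes with a higher mean in EE its log2 fold change ranked 207, against a median of 0.21 and a smallest value of 0.13 for those genes, and its p-value ranked 443 of 584. The spread of Hdac2 between libraries was close to that of the table, with a pooled SD of 0.065 on the log2(FPKM + 0.1) scale against a median of 0.079.

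Genes of like abundance were mostly lower in EE. Of 35 other genes with a mean FPKM within 1.25-fold of Hdac2, 14 were higher and 21 lower in EE, and 10 had a larger log2 fold change than Hdac2. Of the 33 other genes of the table on chromosome 10, 12 were higher and 21 lower. These splits are near that of the whole table, 246 higher and 338 lower.

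**Figure D2:**
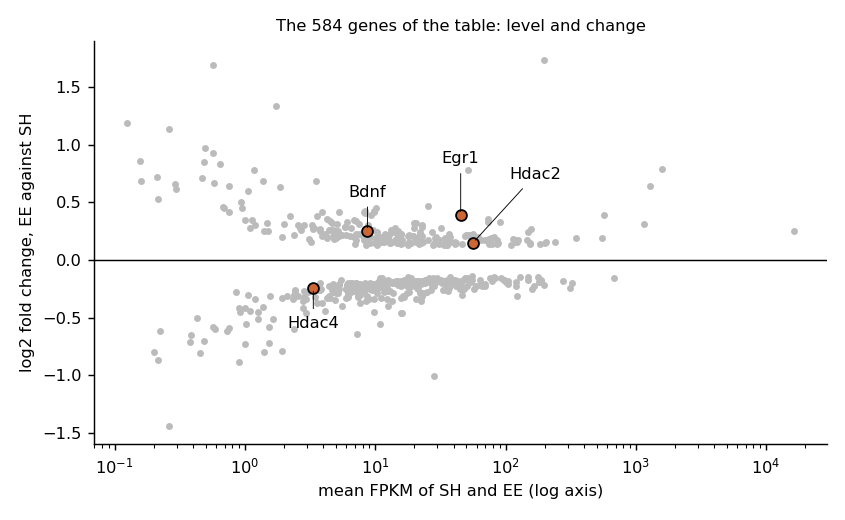
Log2 fold change of EE against SH (vertical axis) against the mean of the SH and EE FPKM on a log axis (horizontal axis) for the 584 genes, with Hdac2, Bdnf, Egr1 and Hdac4 marked. Hdac2, at a mean FPKM of 56.3 and a log2 fold change of 0.15, lies at the inner edge of the higher genes, and the empty band around 0 comes from the selection of the table.

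Exon GC content moved with the direction of change in this table. The median was 43.9% in the higher genes and 56.8% in the lower genes, and Hdac2, at 50.3%, lay between them, with Bdnf at 44.5% and Egr1 at 53.8%. Of 70 other genes with a GC content within 2 percentage points of Hdac2, 28 were higher and 42 lower in EE, and 23 had a larger log2 fold change. With the GC slope of each library removed, the log2 fold change of Hdac2 was 0.13 (unadjusted p = 0.023, adjusted p = 0.074, edgeR). The slopes were fitted on the same selected genes, so this removal can also take away a difference that is not due to GC content.

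The size of the Hdac2 difference depended on how libraries were scaled and on single libraries. The sign of the difference was positive in each of the 18 fits plotted by processing choice. For fits scaled by the library totals alone, with or without a library left out, that sign was fixed beforehand. All EE libraries were above all SH libraries at these totals. The log2 fold change was 0.23 with TMM (unadjusted p = 0.0034, edgeR), 0.20 with the non-mitochondrial table counts (unadjusted p = 0.005, edgeR) and 0.26 with DESeq2's size factors (unadjusted p = 0.00031, DESeq2), of which the median shift of the table makes up 0.11. Without EE replicate 2 it was 0.11 (adjusted p = 0.066, edgeR) and without SH replicate 2 it was 0.13 (adjusted p = 0.057, edgeR). Without EE replicate 3 it was 0.19, and the unadjusted p-value was then 0.0062 (edgeR).

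**Figure D3:**
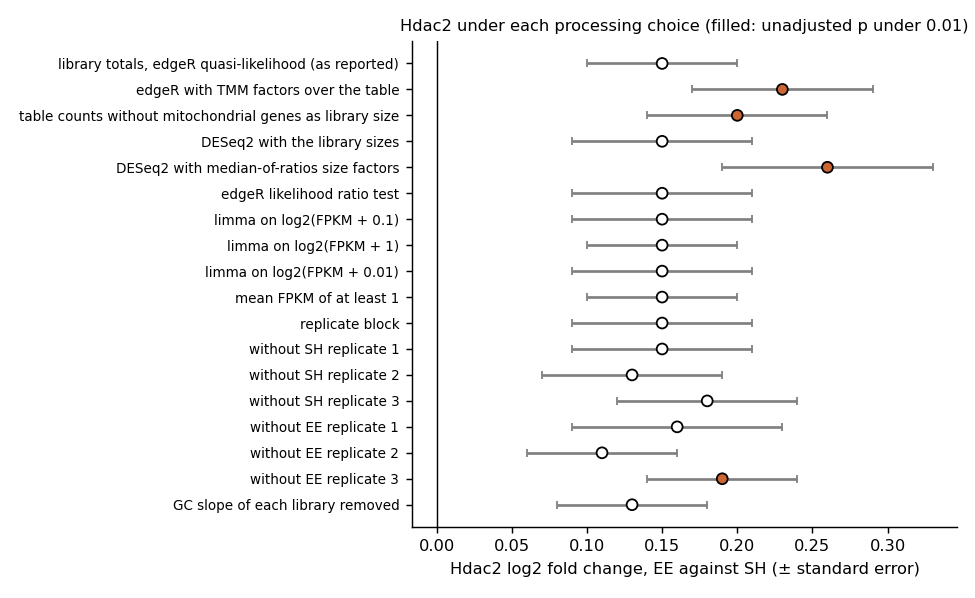
Log2 fold change of Hdac2 in EE against SH (horizontal axis, points, with bars of 1 standard error) for the reported fit and each alternative (rows), filled where the unadjusted p-value is under 0.01. The values run from 0.11 without EE replicate 2 to 0.26 with DESeq2's size factors, and 4 of them are filled.

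Bdnf rose in EE, with no overlap between groups, as in 37.2% of the table, though it did not pass 0.01 with the GC slope removed (log2 fold change 0.10, adjusted p = 0.11, edgeR). Its FPKM was 8.03, 7.68 and 8.18 in SH and 9.51, 9.57 and 9.36 in EE. The EE libraries lay close together and well above the SH libraries, with a lowest EE to highest SH ratio of 1.14. Mean and SD of Bdnf over 3 libraries were 7.96 ± 0.255 for SH against 9.48 ± 0.106 for EE, and the log2 fold change was 0.25 (standard error 0.05, unadjusted p = 0.0006, adjusted p = 0.014, edgeR). At the level of FPKM, Hdac2 RNA was several times as abundant as Bdnf RNA in every library.

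Egr1 had a higher mean in EE, with groups that overlapped. Its FPKM was 50.5, 33.2 and 34.1 in SH and 51.4, 55.7 and 46.9 in EE. SH replicate 1 was above EE replicate 3 and apart from the other SH libraries, which made the SH spread of Egr1, a coefficient of variation of 24.7%, much wider than that of Hdac2. The log2 fold change of Egr1 was 0.39 (standard error 0.14, 95% interval 0.08 to 0.69, unadjusted p = 0.018, adjusted p = 0.021, edgeR), and without SH replicate 1 it was 0.61 (unadjusted p = 1.2e-06, edgeR). It missed an adjusted p of 0.05 without SH replicate 2 (0.28, adjusted p = 0.077, edgeR), without SH replicate 3 (0.30, adjusted p = 0.081, edgeR) and without EE replicate 2 (0.32, adjusted p = 0.074, edgeR), and in both DESeq2 fits (adjusted p = 0.077 with the library totals and 0.064 with DESeq2's size factors). In SH replicate 1 Hdac2 stood between the other SH libraries.

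The ratio of Hdac2 to each target was compared library by library, since a ratio within a library does not depend on the total to which the library was scaled. The Hdac2 to Bdnf ratio of FPKM was 6.57, 6.73 and 6.77 in SH and 6.16, 6.56 and 6.04 in EE. SH replicate 1 and EE replicate 2 were practically equal, and the other EE libraries lay below all SH libraries. As a difference in log2(FPKM + 0.1) between the genes it was lower in EE by a mean of -0.10 (exact two-sided permutation p = 0.2, adjusted p = 0.4 over 2 comparisons). With a pseudocount of 0.01, or without EE replicate 2, the exact permutation p was 0.1, the smallest that 3 against 3 (20 splits) or 3 against 2 libraries allow, so the test could not have passed 0.05. With the GC slope of each library removed the direction turned, to a mean difference of 0.03 (exact permutation p = 0.8), where exon GC content was 44.5% in Bdnf and 50.3% in Hdac2.

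The Hdac2 to Egr1 ratio was 1.05, 1.56 and 1.62 in SH and 1.14, 1.13 and 1.21 in EE. SH replicate 1 lay below all EE libraries and the other SH libraries above them. The mean log2 difference of EE minus SH was -0.26 (exact permutation p = 0.4, adjusted p = 0.4 over 2 comparisons), and without SH replicate 1 it was -0.46. Hdac2 RNA had a higher mean beside higher means of both targets, and whether its response differed from theirs could not be settled with 3 libraries per group.

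Profiles over the 6 libraries were compared by the root-mean-square difference of log2(FPKM + 0.1) after each gene was centred on its own mean, as a description without a test. The measure is small where a gene differs between libraries by the same amounts as Hdac2, and its median over the other 583 genes was 0.194. The 8 nearest genes had values between 0.025 and 0.035. They were Rheb (0.025), a small GTPase that activates mTORC1, St8sia3 (0.026), a sialyltransferase, Rab6a (0.026), a Golgi trafficking GTPase, Tpp2 (0.029), a tripeptidyl peptidase, Lrrc8c (0.029), a subunit of volume-regulated anion channels, Gabra5 (0.032), a GABA-A receptor subunit enriched in the hippocampus, Mtdh (0.033), also called metadherin, and Bmpr2 (0.035), a receptor for bone morphogenetic proteins.

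Rheb, the nearest, had an FPKM of 67.6, 66.9 and 74.3 in SH and of 78.7, 83.2 and 74.5 in EE. It repeats the order of Hdac2, with SH replicate 3 the highest SH library, EE replicate 2 the highest EE library and EE replicate 3 the lowest. The 8 genes share its highest and lowest EE library, which follows from how they were chosen. The log2 fold changes of the 8 ran from 0.14 in St8sia3 to 0.21 in Lrrc8c. Bdnf ranked 73 by this measure (0.061) and Egr1 ranked 460 (0.24). When profiles were also divided by their SD, 3 of the 8 genes were again among the nearest, so most of the list rests on the size of the change as well as its shape.

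**Figure D4:**
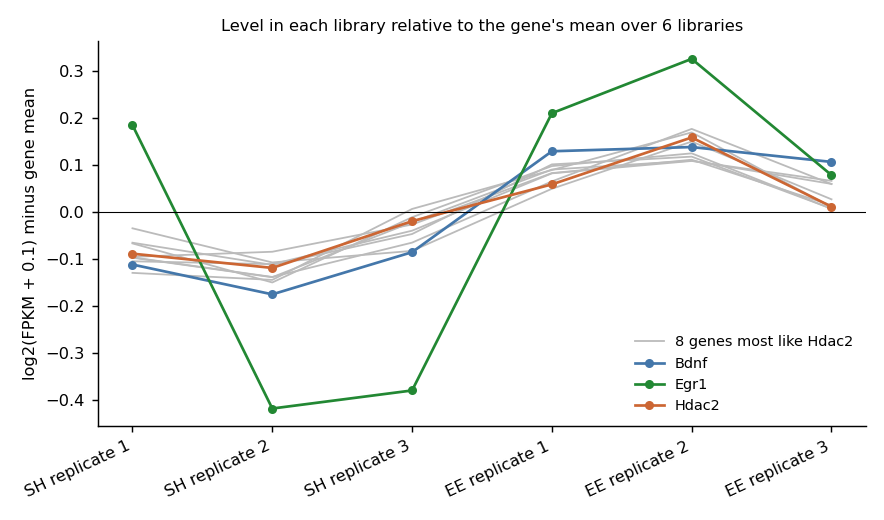
Log2(FPKM + 0.1) of each gene minus its own mean (vertical axis) in the 6 libraries (horizontal axis) for Hdac2, Bdnf, Egr1 and the 8 genes most like Hdac2 (grey). The grey lines follow Hdac2, Bdnf is flatter within EE, and Egr1 is high in SH replicate 1; lines only join the values of a gene and the libraries have no order.

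Of a list of 18 histone deacetylases, sirtuins included, 2 were in the table, and they differed in opposite directions. Hdac4, a class IIa deacetylase that shuttles between nucleus and cytoplasm, fell in EE. Its FPKM was 3.65, 3.55 and 3.69 in SH and 3.14, 3.0 and 3.08 in EE. All EE libraries were below all SH libraries, as in 53.8% of the selected table. The log2 fold change was -0.24 (standard error 0.06, unadjusted p = 0.0018, adjusted p = 0.015, edgeR), and it was negative under every scaling tried, from -0.24 to -0.13. With DESeq2's size factors Hdac4 did not pass an unadjusted p of 0.01. The FPKM ratio of Hdac2 to Hdac4 was 14.4, 14.6 and 15.0 in SH and 18.6, 20.9 and 18.4 in EE. It was higher in every EE library than in every SH library, which follows from their opposite differences without overlap.

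Of the other subunits of complexes that hold HDAC1 and HDAC2, 2 of 37 listed genes were in the table, both subunits of NuRD-type complexes. Mbd3, a methyl-CpG-binding domain protein of NuRD, fell by 0.18 on the log2 scale (unadjusted p = 0.0041, edgeR), from a mean FPKM of 45.9 (SD 1.14, n = 3) to 40.7 (SD 0.982, n = 3), but its sign turned positive, to 0.07, with the GC slope removed. Chd5, a neuronal chromodomain remodeller, had a log2 fold change of -0.18 (unadjusted p = 0.014, edgeR) and did not pass 0.01. Under another of the settings its value was as small as -0.05. Lower means were also found in 338 of the 584 genes, 40.6% of the table at p under 0.01, and these 2 are no result about the complexes.

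Of 64 histone methylation and Polycomb genes 8 were in the table, 7 of them lower in EE and all 7 with p under 0.01, where 338 of the 584 genes were lower and 40.6% were lower at that threshold. The number of calls depended on the scaling and on single libraries, as the counts over all 5 lists show. The 7 lower genes included Phf1 (-0.32) and Ezh1 (-0.17), which belong to Polycomb repressive complex PRC2. Cbx7 (-0.21) and Cbx6 (-0.16) are chromodomain readers of PRC1. The others were Mllt6 (-0.24), a partner of a histone methyltransferase, Kmt2d (-0.21), a histone methyltransferase of active enhancers, and Ehmt2 (-0.18), the methyltransferase G9a. With the GC slope removed the value of Ehmt2 was 0.03. Across scalings, GC slope removal and replicate block, the smallest falls were -0.14 in Phf1, -0.06 in Ezh1, -0.08 in Cbx7 and -0.05 in Cbx6. They were -0.08 in Mllt6 and -0.07 in Kmt2d. Suv39h2, a heterochromatin methyltransferase, had a log2 fold change of 0.32 and did not pass (unadjusted p = 0.015, edgeR). Of 27 acetyltransferases and acetyl readers only Kansl1l, a relative of a subunit of the NSL acetyltransferase complex, was in the table. It rose by 0.25 (unadjusted p = 0.0083, edgeR), with a value of -0.04 when the GC slope was removed.

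Of 43 genes of nucleosome remodelling, HMG proteins and DNA methylation, 4 were in the table. Hmgn2, a nucleosome-binding HMG protein, rose by 0.23 (unadjusted p = 0.0073, edgeR), and Hmgb1, a DNA-bending HMG protein, had a log2 fold change of 0.28 with overlapping groups (unadjusted p = 0.012, edgeR). Smarca2, an ATPase of SWI/SNF complexes, fell by 0.18 (unadjusted p = 0.0077, edgeR). Mbd6, a methyl-CpG-binding domain family member, fell by 0.24 (unadjusted p = 0.0087, edgeR), with a value of -0.01 when the GC slope was removed. The smallest changes across scalings, GC slope removal and replicate block were 0.11 for Hmgn2, 0.08 for Hmgb1 and -0.07 for Smarca2.

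Over these 5 lists, 17 of 189 genes were in the table, 5 higher and 12 lower in EE, and 2 and 11 of them passed p under 0.01, against 19.2% higher and 40.6% lower at that threshold in the table. The median log2 fold change of the 17 was -0.18, equal to that of the table, and the lower members had a median exon GC content of 57.7% against 42.6% in the higher ones. The groups did not overlap in 16 of the 17, where 37.2% of the table lay higher and 53.8% lower without overlap. The number of calls rested on the scaling and on single libraries, with 5 higher and 2 lower under TMM, 5 and 3 with the non-mitochondrial table counts, 5 and 0 with DESeq2's size factors, and 0 and 3 with the GC slope removed. It was 0 higher and 3 lower without EE replicate 2, 0 and 4 without SH replicate 2, 2 and 4 without EE replicate 1, 1 and 5 without SH replicate 1, 3 and 9 without SH replicate 3, 1 and 9 without EE replicate 3, and 2 and 5 with the replicate number as a block. Within this set Hdac2 was the second most abundant transcript at the lengths behind the FPKM. At its RefSeq exon length its mean FPKM would be 46.2 in place of 56.3, so this rank depends on the lengths.

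**Figure D5:**
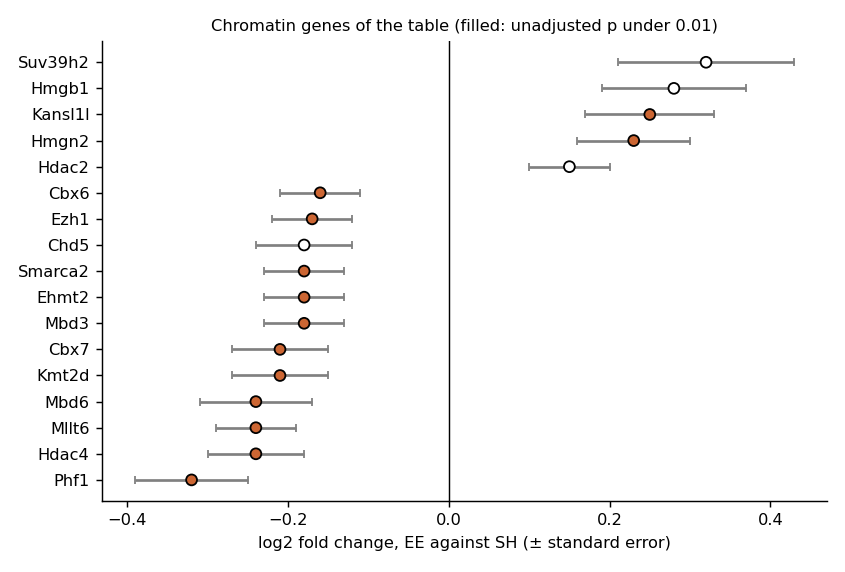
Log2 fold change of EE against SH (horizontal axis, points, with bars of 1 standard error) for the 17 genes of the chromatin lists that are in the table (rows), filled where the unadjusted p-value is under 0.01. Hdac2, at 0.15, is the lowest of the 5 genes to the right of 0, and 12 genes lie to the left, between -0.32 and -0.16.

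Of 22 memory and plasticity genes described as HDAC2 targets, Bdnf and Egr1 were the 2 in the table. The wider list of activity-regulated genes had 20 of 42 members present, of which 18 were higher and 2 lower, with 11 and 2 at p under 0.01 and a median log2 fold change of 0.31. Over all 584 genes 246 were higher and 338 lower, 19.2% and 40.6% of the table with p under 0.01, and the median was -0.18. The members that rose were Atf3, Egr4, Dusp5, Dusp6, Ptgs2, Nptx2, Bdnf, Per2, Bhlhe40, Errfi1 and Tiparp. Scg2, a neuropeptide precursor and the most abundant of them, had a log2 fold change of 0.17 that did not pass (unadjusted p = 0.028, edgeR), and Sgk1, a kinase, had 0.29 (unadjusted p = 0.012, edgeR). Dusp6, a phosphatase of the ERK pathway, rose by 0.32 (unadjusted p = 0.0021, edgeR), Errfi1, an inhibitor of the EGF receptor, by 0.21 (unadjusted p = 0.0021, edgeR) and Bhlhe40, a transcriptional repressor, by 0.18 (unadjusted p = 0.0063, edgeR). Jun and Jund, subunits of AP-1, fell by 0.18 (unadjusted p = 0.0039, edgeR) and 0.22 (unadjusted p = 0.005, edgeR).

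SH replicate 1 was the highest SH library in 10 of the 20 members of this list in the table, Egr1 among them, and in 28.3% of all 584 genes, a difference that was not tested. Nr4a1, an immediate early nuclear receptor named after its values were seen, had an FPKM of 9.37 in SH replicate 1 against 5.97 and 5.93 in the other SH libraries, and of at least 8.51 in every EE library. In Hdac2 that library was the middle of the SH group. Its part in the comparison of Hdac2 with Egr1 was not tested beyond leaving the library out.

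Markers of cell types were in the table as well, where every gene had been selected for a difference, 246 of the 584 genes were higher and 338 lower, and 19.2% and 40.6% were so at p under 0.01. Neurod6, a transcription factor of pyramidal neurons and the 1 of 10 neuron markers present, rose from 132.1 to 142.8 FPKM in SH to 151.2 to 158.3 in EE (unadjusted p = 0.0083, edgeR). Of 10 immature neuron and progenitor markers 2 were present, Dcx and Stmn1. Dcx was higher, with a mean FPKM of 2.21 in SH and 2.57 in EE (unadjusted p = 0.0093, edgeR). Stmn1 was lower, with 344 in SH and 299 in EE, and did not pass 0.01 (unadjusted p = 0.013, edgeR). Their sum, 323 to 376 FPKM in SH and 287 to 317 in EE, is nearly all Stmn1. Aldh1l1 and Gja1, 2 of 8 astrocyte markers, both fell and summed to 101 to 104 in SH and 91.2 to 92.4 in EE. Of 9 microglia markers P2ry12 rose and Cd74 fell. Their sum, mostly P2ry12, was 20.6 to 23.7 in SH and 24.8 to 26.1 in EE. The 4 of 9 endothelial and mural markers, 1 higher and 3 lower, summed to 24.9 to 28.0 and 21.7 to 23.4, and Hba-a1, the 1 of 5 erythroid genes, ran from 57.6 to 78.1 and from 75.4 to 95.1. None of 10 oligodendrocyte and 5 choroid plexus markers was in the table, no marker present was at 0, and genes outside the table were not analysed here. The part of cell composition in the Hdac2 difference was not tested.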

How the data were processed

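RNA-seq libraries of SH and EE hippocampus, 3 each, were analysed, grouped by their labels. The authors mapped reads to mm10 with Hisat2, counted reads per gene with FeatureCounts and deposited, for the 584 genes called with edgeR, the raw count in every library. The authors computed FPKM from count, gene length and library reads, and deposited it beside the counts. Their p-value and log2 fold change columns were not used, nor were the 6 m6A libraries.

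The ratio of count to FPKM gave each library's total (201 genes gave the same total within 10 reads, with RefSeq exon lengths). It also gave a length within 0.001 bp of a whole number for all 584 genes. The length behind the FPKM of Hdac2 was 2229 bp, against 2716 bp for all RefSeq exons used here. Of the 584 genes, 555 matched RefSeq (GRCm38.p6) by symbol, 14 by an older symbol and 15 not, and 569 (97.4%) had a GC content. Counts of all 584 genes were tested with edgeR 4.0.16 (quasi-likelihood, R 4.3.3), with these totals as library sizes, no filter and no block. Standard errors come from the same fit, and the p-value threshold of 0.01 is that of the study. Alternatives were TMM, table counts without mitochondrial genes, DESeq2 1.42.0, edgeR's likelihood ratio test, limma 3.58.1 on log2(FPKM + 0.1) and other pseudocounts, a filter at a mean FPKM of 1, a block for replicate number and each library left out; removal of GC slopes was chosen after seeing the data. Only the main edgeR fit was also run on simulated counts, in which genes were not selected for a difference and no GC slope was set.

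Hdac2, the gene lists and the markers were chosen with earlier results of these data known. Named genes are Hdac2, Bdnf, Egr1, the 8 genes nearest in profile, and the members of the chromatin, target and activity lists in the table, with values for at most the 8 most abundant of the latter. Nr4a1, named after its values were seen, and the cell type markers stand beside them. Depth limits no value here beyond counting error, since the smallest count in the table was 19. The study calls the replicates biological, and pooling of mice is not mentioned.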

Additional observations from a re-analysis of the deposited data

How the results depend on the processing

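The log2 fold change of Hdac2 was 0.23 with TMM factors, 0.20 with the non-mitochondrial table counts and 0.26 with DESeq2's size factors, all with p under 0.01, 0.13 with the GC slope removed, and 0.11 to 0.19 with each library left out. Bdnf fell short of p under 0.01 only with the GC slope removed (0.10), and leaving out libraries gave 0.23 to 0.27. Egr1 passed p under 0.01 with edgeR's likelihood ratio test (0.39, unadjusted p = 0.0064), with the replicate block (0.41, unadjusted p = 0.0088) and with the GC slope removed (0.44, unadjusted p = 0.0089), and ran from 0.28 to 0.61 with libraries left out. Its adjusted p-value was above 0.05 with both DESeq2 fits (0.077 and 0.064) and under it in 3 of the 6 fits that left out a library. The genes higher in EE at p under 0.01 numbered 229 with TMM, 217 with the non-mitochondrial table counts, 233 with DESeq2's size factors, 40 with the GC slope removed and 52 to 98 with libraries left out. The genes lower numbered 53, 90, 29 and 90 in the same order of settings, 136 with the replicate block and 77 to 228 with libraries left out. The cause of these shifts was not tested. In the replicate block fit Hdac2 had a log2 fold change of 0.15 (unadjusted p = 0.037, edgeR). Deviations of same-numbered libraries correlated at 0.15, -0.04 and -0.10, and those of libraries with other numbers at -0.22 to 0.26. Whether samples of the same number belong together was not tested. With libraries left out the difference between Hdac2 and Bdnf ran from -0.13 to -0.07 and that between Hdac2 and Egr1 from -0.46 to -0.14. Both also kept their sign with other pseudocounts. The replicate block leaves these mean differences unchanged by arithmetic, so it could not have turned their sign. Removal of the GC slope was chosen after seeing the data. It turned the Hdac2 to Bdnf difference to 0.03, and the Hdac2 to Egr1 difference was then -0.33. The design cannot give an exact permutation p under 0.1. The 8 genes nearest to Hdac2 were the same with TMM-scaled values, and 3 of them were shared when profiles were divided by their SD.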
